A study of Caenorhabditis elegans with 4 samples.

Results

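CES-1 regions on chromosome III are the stretches of that chromosome at which tagged CES-1 was found enriched over input DNA in larvae of the nematode Caenorhabditis elegans. They were chosen by position alone, as all regions on III in the list that the authors called on the merged reads of both immunoprecipitations. There were 456 such regions among 2713 in all. They were set against the regions of the same list on II (452), IV (404), V (408) and X (593). Hermaphrodites at larval stage L3 were studied by ChIP-seq, in which crosslinked DNA bound to a protein is pulled down with an antibody and sequenced. All libraries came from strain OP174, grown at 20 °C and crosslinked with 2% formaldehyde. Its genotype pairs the allele unc-119(ed3) with the transgene wgIs174, which carries ces-1::TY1 EGFP FLAG, a copy of ces-1 tagged at the C-terminal end of its protein, together with unc-119. The first group held 2 ChIP libraries made with a goat antibody against GFP, and the second held 2 libraries of input DNA, set aside from the lysate before the antibody was added. Input and ChIP worms therefore shared the mutated unc-119 allele, the rescuing unc-119 copy and the transgene. No ces-1 mutation is listed, so the tagged copy came on top of the worm's own gene. The transgene was brought in by bombardment, and the labels state that the fusion protein is made where and when ces-1 normally is. Whole larvae were used, so a region cannot be given to a cell type, and no ChIP of worms without the tag was analysed here.

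CES-1 is a zinc-finger transcription factor of the Snail family, whose members bind E-box sequences and are best known as repressors. In the worm it is known for its part in programmed cell death in the pharynx, where it can repress egl-1, the activator of the death pathway. The chromosomes of the worm are holocentric, and their autosomes have gene-dense centres and arms that are richer in repeats. The RefSeq gene table places unc-119 on chromosome III, ces-1 on I and egl-1 on V. That table is of another build than the regions, which are in WormBase WS220 coordinates. No gene, exon, intron or sequence was therefore assigned to any region.

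ChIP replicates 1 and 2 held 873921 and 1320404 uniquely mapped reads, and input replicates 1 and 2 held 1535649 and 907103. Of the ChIP reads 11.8% and 11.7% mapped uniquely, against 66.8% and 73.1% of the input reads. Each region carries a q-value given by the authors, shown here as a score, −log10(q), so that a score of 2 is a q of 0.01 and higher scores are stronger calls. Nothing in the labels says whether the replicates came from separate cultures. Shares are given with 95% Wilson intervals, which cover counting error only. They treat regions as independent, although neighbouring regions and all regions of a list share libraries. The intervals of differences, odds ratios and density ratios rest on the same assumption and were not adjusted for the 4 chromosomes compared.

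The strongest CES-1 region on III lay at 10435941 to 10436326. It was 386 bp wide and had a combined score of 35.9, a replicate 1 score of 14.04 and a replicate 2 score of 20.1. It ranked 1 on III in every one of the 3 lists, and the middle of the replicate regions lay 0.5 bp from that of the combined region. The next region, at 1921112 to 1921857, was 746 bp wide and scored 31.1 in the combined list, 10.9 in replicate 1 and 17.7 in replicate 2. The third, at 7854428 to 7854815, scored 28.5, with 11.5 and 16.3 in replicates 1 and 2. The fourth, at 3867380 to 3867765, scored 28.3, with 11.5 and 14.5. These 4 lay far from each other, on both sides of the chromosome's middle, and stood in ranks 1 to 4 of both replicate lists on III.

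Ranks 5 to 8 on III were also strong in both replicates. The region at 6317209 to 6317769 scored 22.7 in the combined list, 9.53 in replicate 1 and 13.96 in replicate 2. In the list of merged reads the region at 6137216 to 6137884 scored 19.1, with 8.28 in replicate 1 and 11.9 in replicate 2. The region at 4967145 to 4967550 scored 17.1, and its replicate 1 score of 5.38 put it in rank 13 there while its replicate 2 score of 10.97 put it in rank 7. The region at 8416823 to 8417820 was the widest on III, at 998 bp, and scored 16.6, with 6.26 and 9.71. In replicate 1 these 4 regions held ranks 5, 6, 13 and 9, and in replicate 2 ranks 5, 6, 7 and 9.

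The remaining members of the highest 15 had combined scores from 11.5 to 13.6. At 10758973 to 10759338 the replicate scores were 5.17 and 7.55, and at 7253613 to 7254011 they were 5.98 and 6.71. At 12250147 to 12250679 replicate 1 scored 3.94 and replicate 2 scored 8.95, and at 12904919 to 12905263 the scores were 4.83 and 6.07. The region at 671051 to 671488 scored 3.72 and 6.82. The region at 11391674 to 11392541, which at 868 bp was the second widest on III, scored 6.56 in replicate 1 and 10.4 in replicate 2. The region at 5992039 to 5992371 showed the widest gap in rank, with a replicate 1 score of 3.06 in rank 45 and a replicate 2 score of 7.41 in rank 12. All 15 were called in both replicates. The score of replicate 2, which held more reads, exceeded that of replicate 1 in 15 of 15. Of the 15, 12 were among the 15 highest of replicate 1 on III and 14 among those of replicate 2. The combined list was called on the same reads, so this support is not independent of it.

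**Figure D1:**
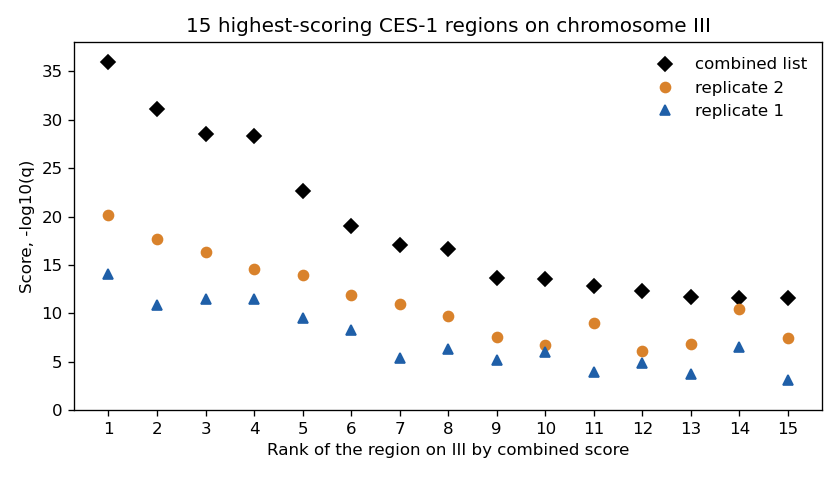
Score, −log10(q), of the 15 highest-scoring combined regions on III in rank order, with diamonds for the combined list, circles for replicate 2 and triangles for replicate 1. The replicate 2 score lies above the replicate 1 score in all 15, and the combined score falls from 35.9 to 11.5.

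Over all members, 73 of the 456 regions on III were called in both replicates (16.0%, 12.9 to 19.7, against 16.3% of the whole combined list). A further 142 were called only in replicate 2 (31.1%) and 31 only in replicate 1 (6.80%). Neither replicate called the remaining 210 (46.1%, against 52.3% of the whole list). Replicate 1 thus supported 104 regions (22.8%, against 21.4% of the whole list) and replicate 2 supported 215 (47.1%, against 42.6%). The whole list also holds regions outside II, III, IV, V and X. Those were called less often in either replicate and lower the shares called of the whole list. On II, IV, V and X together both replicates called 18.5% and neither called 48.9%, while replicate 1 called 24.2% and replicate 2 called 45.3%. The difference in the share called in both was −2.46 percentage points (−6.04 to 1.56). At least 1 replicate supported 246 (53.9%, 49.4 to 58.5, against 47.7% of the whole list). On II, IV, V and X together that share was 51.1%, and the difference of 2.90 percentage points had an interval that held 0 (−2.22 to 7.96). A combined region on III never held more than 1 region of the same replicate list. The share called in at least 1 replicate was 44.3% when an overlap of 50% of both regions was asked for in place of 1 bp.

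Support followed the combined score. The median score was 7.73 and the median width 375 bp for the regions on III that both replicates called. Those called only in replicate 2 had medians of 3.50 and 232.5 bp, and those only in replicate 1 of 3.61 and 271 bp. Regions called in neither had medians of 2.40 and 137.5 bp. Both replicates called all 21 regions on III with a score above 10. Of the 38 that scored from 6 to 10, replicate 1 called 29 and replicate 2 called 37, and none was missed by both. Of the 81 that scored from 4 to 6, replicate 1 called 33 and replicate 2 called 66. Of the 123 that scored from 2 to 2.5, replicate 1 called 2 and replicate 2 called 10. Since the replicate reads are part of the combined reads, a rise of support with score is partly built in.

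The limits of each class mark where the replicates part. The highest-scoring region on III called in replicate 2 alone lay at 502612 to 503008, with a combined score of 7.78 and a replicate 2 score of 4.06. The highest called in replicate 1 alone lay at 8509697 to 8510371, with a combined score of 6.08 and a replicate 1 score of 2.87. The lowest-scoring region called in both lay at 12558026 to 12558287 and scored 3.10, with 2.40 in replicate 1 and 2.62 in replicate 2. The strongest region called in neither lay at 349727 to 350071 and scored 4.43. It was followed by 13131203 to 13131441 with 4.15, 12612420 to 12612836 with 4.11, 13270692 to 13270853 with 4.03, and 131701 to 131932 with 3.97. All 5 lay near an end of the chromosome, within 10% of its extent. This depends on the cut at 5 regions. The next such region, at 6135168 to 6135510, scored 3.966 against 3.967 and lay at 0.447 of the extent, near the middle.

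**Figure D2:**
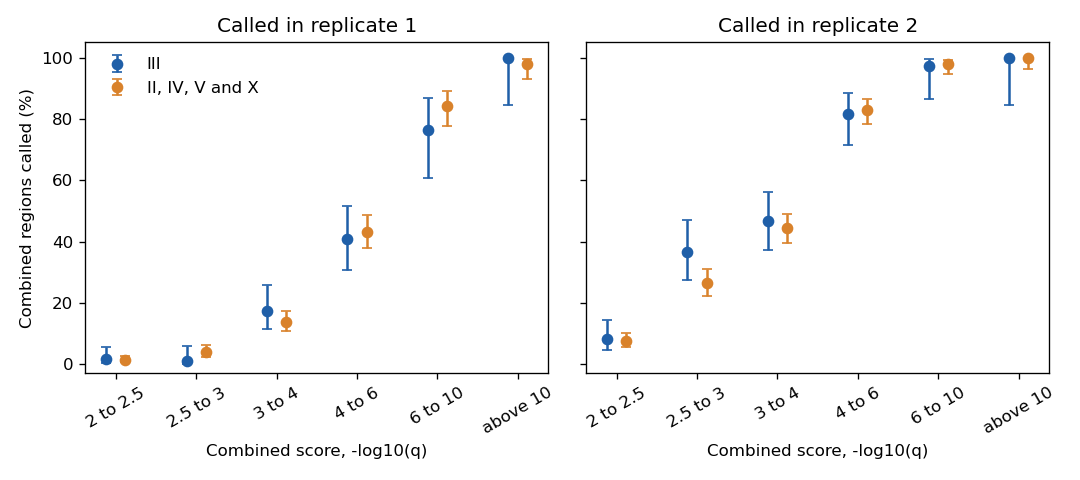
Percent of combined regions called in replicate 1 (left) and replicate 2 (right) by band of combined score, for III and for II, IV, V and X together, with 95% Wilson intervals. In the band from 4 to 6, replicate 1 called 40.7% of the regions on III and 43.2% elsewhere, and replicate 2 called 81.5% and 82.9%.

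The share of regions called in at least 1 replicate was 9.26 percentage points higher on III than on II, where it was 44.7% (95% Newcombe interval of the difference 2.75 to 15.7). Against IV, where it was 58.9%, the difference was −4.96 (−11.5 to 1.68), and the intervals against V (2.72, −3.93 to 9.35) and X (3.53, −2.57 to 9.57) also held 0. The share called in both replicates was lower on III than on IV, where it was 21.8% (difference −5.77, −11.05 to −0.54). Its intervals against II (2.29, −2.35 to 6.93), V (−1.64, −6.68 to 3.34) and X (−4.40, −9.01 to 0.36) held 0. Because support depends on score, the comparison was repeated inside 6 bands of combined score, with the Mantel-Haenszel odds of being called in at least 1 replicate. The odds on III were 1.70 times those on II (1.19 to 2.45) and 1.52 times those on X (1.08 to 2.14). Against IV and V the ratios were 0.84 (0.58 to 1.21) and 1.20 (0.84 to 1.73), and against the 4 chromosomes together 1.30 (0.98 to 1.72). For replicate 2 alone the odds ratio was 1.50 to II (1.06 to 2.12) and 1.42 to X (1.02 to 1.97). Replicate 1 alone gave 1.11 (0.73 to 1.68) and 0.89 (0.60 to 1.33). With an overlap of 50% of both regions, the ratio was 1.14 to II (0.80 to 1.62) and 0.95 to X (0.68 to 1.31), so that neither interval excluded 1. Under that rule the ratio to IV was 0.60 and its interval excluded 1 (0.42 to 0.86). Against X the interval also held 1 without bands (1.15, 0.90 to 1.47), for scores of at least 3 (1.46, 0.90 to 2.37) and for regions of at least 50 bp (1.41, 0.98 to 2.02).

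The replicate lists themselves held 107 regions on III in replicate 1 and 225 in replicate 2. An overlap joined 73 pairs, which made up 68.2% of the first list (58.9 to 76.3) and 32.4% of the second (26.7 to 38.8). On II, IV, V and X together these shares were 76.4% (72.3 to 80.03) and 40.3% (37.1 to 43.6). Cut to the 107 highest-scoring regions of each list on III, both shares were 54.2%. Matched replicate 1 regions had a median score of 3.22 and unmatched ones 2.29. Matched replicate 2 regions had a median of 3.74 and unmatched ones 2.42. The 73 pairs are not the same set as the 73 combined regions called in both replicates. In 1 pair the replicate regions overlapped no combined region, and in 1 combined region called in both they did not overlap each other. The authors used a single merged input for both lists, and the part of this shared control in their overlap was not tested.

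Within the 73 matched pairs on III, replicate 2 scored higher in 54 (73.97%), with a median difference of 0.59 (quartiles −0.037 and 2.12). On the other 4 chromosomes it scored higher in 68.3% of pairs, with a median difference of 0.59. The largest excess of replicate 2 was at the regions ranked 2 and 1 on III, by 6.83 and 6.10. The pair with the largest excess of replicate 1 lay in the combined region at 312884 to 313264, with 7.93 in replicate 1 and 4.02 in replicate 2. The next lay at 10284056 to 10284469, with 6.01 and 3.72. Across the 73 pairs Pearson's r of the scores was 0.89 and Spearman's rho 0.70, given as a description, since the pairs share their libraries and input. The centres of matched regions lay a median of 27.5 bp apart (quartiles 14 and 58 bp, at most 162.5 bp), against a median of 40.5 bp on the other 4 chromosomes.

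**Figure D3:**
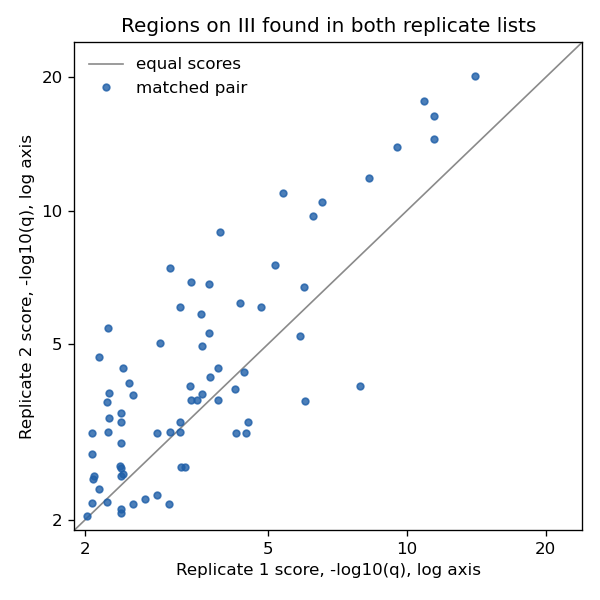
Replicate 1 score against replicate 2 score, −log10(q) on log axes, for the 73 pairs of overlapping replicate regions on III, with a line of equal scores. Most pairs (54) lie above the line, and the highest pair has 14.04 and 20.1.

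The strongest replicate 2 regions on III with no replicate 1 match were at 1791988 to 1792268 with a score of 5.63, at 4657425 to 4657727 with 5.53, and at 6350458 to 6350704 with 5.11. Their combined scores were 6.54, 6.95 and 7.05. The strongest unmatched replicate 1 regions were at 4018137 to 4018430 with 3.73, at 5372722 to 5373016 with 3.39, and at 8873095 to 8873349 with 3.31. Their combined scores were 5.11, 4.74 and 4.88. All 6 scored higher in the combined list than in the single replicate.

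Over whole lists the median width on III was 200 bp in the combined list, 269 bp in replicate 1 and 200 bp in replicate 2. Of the 73 combined regions called in both replicates, 72 scored above either replicate and 52 above the sum of the replicate scores. The median width of these 73 was 375 bp, against 291 bp for the replicate 1 regions and 293 bp for the replicate 2 regions they overlap. The replicate 1 region lay wholly inside the combined one in 66 of 73 and the replicate 2 region in 67. In 72 of the 73 the replicate regions also overlapped each other. The exception was 10580150 to 10580382, where replicate 2 called the left part, 10580150 to 10580228, and replicate 1 the right part, 10580289 to 10580358.

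Some replicate calls on III had no counterpart in the combined list. These were 3 of the 107 replicate 1 regions and 10 of the 225 replicate 2 regions, against 3 of 457 and 21 of 869 on II, IV, V and X together. The 10 replicate 2 regions had a median width of 29 bp and scores from 2.003 to 2.64. One site was called in both replicates and yet was absent from the list called on their merged reads. It spanned 931227 to 931784 in replicate 1 (score 3.30) and 931226 to 931828 in replicate 2 (score 2.64). The nearest combined region, at 887856 to 888201, lay 43024 bp away. Among the 350 matched pairs on the other 4 chromosomes there was 1 such pair. This site is no member of the 456 and enters no count of them. It is, however, 1 of the 73 matched pairs of replicate regions on III and enters their statistics.

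The width of the regions was compared next. On III the median width was 200 bp (95% interval 195 to 216), against 222 bp (216 to 232) on II, IV, V and X together, and these intervals met at 216 bp. Single medians were 205.5 bp on II (200 to 222), 219 bp on IV (207 to 236), 221 bp on V (206 to 245) and 239 bp on X (225 to 253). The intervals of III and X did not overlap, while those of III and of II, IV and V did. All 456 regions on III covered 100921 bp, 0.735% of the chromosome as far as the last region in any list, against 0.668% on the other 4 chromosomes and 0.911% on X. The widest on III after the 2 already given was 354547 to 355297, of 751 bp and a combined score of 6.09. Replicate 2 called only the right end of it, 355061 to 355297, and replicate 1 none of it.

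The narrow end of the list held more of III than of the other chromosomes. On III 61 regions were under 50 bp (13.4%, 10.6 to 16.8, against 9.33% of the whole list), and on II, IV, V and X together 160 of 1857 (8.62%, 7.42 to 9.98). The difference was 4.76 percentage points (1.63 to 8.39), with 2.32 against II (−1.97 to 6.60), 4.47 against IV (0.22 to 8.66), 7.49 against V (3.58 to 11.4) and 4.95 against X (1.17 to 8.91). This threshold was examined after the widths were seen. Within bands of combined score the odds of being under 50 bp on III were 1.73 times those on the 4 chromosomes together (1.23 to 2.44). The ratio was 2.87 to V (1.69 to 4.85) and 1.70 to X (1.11 to 2.59), while the intervals to IV (1.54, 0.96 to 2.48) and II (1.36, 0.89 to 2.08) held 1. The excess over the 4 together lay in the lowest band: of regions that scored from 2 to 2.5, 48 of 123 on III were under 50 bp (39.02%), against 102 of 487 elsewhere (20.9%). Without that band the odds ratio was 0.91 (0.48 to 1.70).

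Narrow regions on III were mostly weak. Their median score was 2.17, and 10 of the 61 were called in a replicate, against 16 of 160 elsewhere. There were 20 regions under 10 bp and 4 of a single base. The single bases were III 548281 with a score of 2.005, 3578916 with 2.01, 7390105 with 2.01, and 698994 with 3.52, of which the last was called in replicate 2 with a score of 2.62. The highest-scoring region under 50 bp was 6681972 to 6681989, with 3.52, and was also called in replicate 2 alone. In the replicate 2 list 22 of 225 regions on III were under 50 bp (9.78%), against 36 of 869 on the other 4 chromosomes (4.14%), a difference of 5.64 points (2.06 to 10.4). In replicate 1 there were 2 of 107. Without its regions under 50 bp, III had a median width of 223 bp. The same median was not computed for the other 4 chromosomes, whose 222 bp includes their regions under 50 bp.

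**Figure D4:**
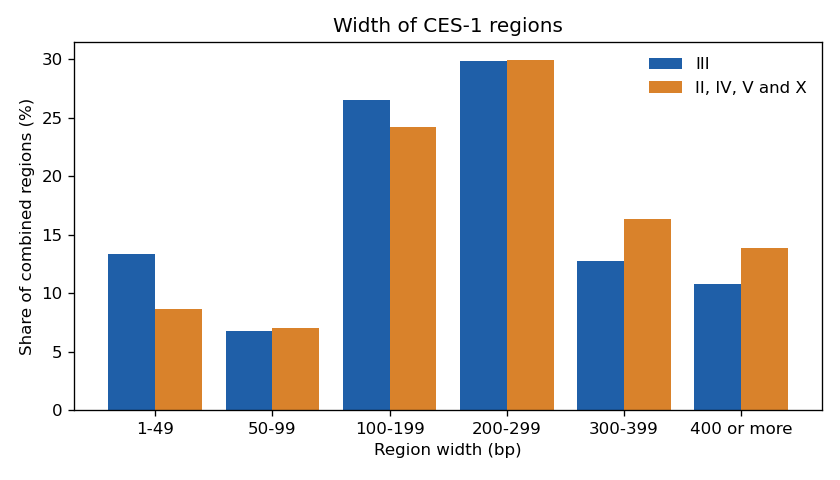
Share of combined regions in 6 classes of width (bp) on III and on II, IV, V and X together. The narrowest class held 13.4% on III and 8.62% elsewhere, and the class of 400 bp or more held 10.7% and 13.9%.

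The scores of the regions on III did not differ from those elsewhere beyond their intervals. Their median combined score was 3.08 (95% interval 2.94 to 3.24), against 3.11 (3.07 to 3.24) on II, IV, V and X together. Regions that scored above 10 made up 21 of 456 on III (4.61%, 3.03 to 6.94) and 101 of 1857 elsewhere (5.44%, 4.50 to 6.57). The difference was −0.83 percentage points (−2.77 to 1.68), and against X, with 43 such regions, it was −2.65 (−5.49 to 0.31).

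CES-1 regions were dense on III, at 33.2 per Mb. The density was 1.70 times that of V (19.5 per Mb, exact 95% interval of the ratio 1.48 to 1.95) and 1.43 times that of IV (23.3 per Mb, 1.24 to 1.63). Against II (29.6 per Mb) the ratio was 1.12 (0.98 to 1.28), and against X (33.6 per Mb) it was 0.99 (0.87 to 1.12). In the replicate 1 list the ratio was 1.73 to V (1.30 to 2.31) and 1.19 to IV (0.90 to 1.56), and in the replicate 2 list 1.78 (1.46 to 2.17) and 1.26 (1.04 to 1.52). For regions called in both replicates the ratio was 1.54 to V (1.10 to 2.17) and 1.05 to IV (0.76 to 1.45). The interval to IV held 1 and also the 1.43 of the whole list, so it cannot settle whether the excess remains in that part. The replicate 2 list also gave 1.37 to II (1.13 to 1.68). Each chromosome was counted as far as its last region in any list, 13.7 Mb on III, with every base taken as mappable. The exact intervals take regions as independent, for which counts in windows would have a variance equal to their mean. In windows of 1 Mb the variance divided by the mean was 2.58 on III, and ranged from 1.54 on X to 7.13 on II. The intervals of the density ratios are therefore too narrow, and those that lie near 1 do not settle a difference.

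Whole windows of 1 Mb on III held 32.2 ± 9.10 combined regions (SD, n = 13), from 19 to 47. The SD between windows on III lay between those of the other chromosomes, as a description with no test. It was higher on II (29.7 ± 14.6, n = 15) and V (19.5 ± 11.1, n = 20), and lower on IV (23.2 ± 8.27, n = 17) and X (33.8 ± 7.21, n = 17). The order of III and IV depends on the measure, since the means differ. The variance divided by the mean was 2.58 on III, 2.95 on IV, 7.13 on II, 6.35 on V and 1.54 on X. The fullest window, 8000001 to 9000000, held 47 regions, of which 27 were called in a replicate. It was followed by 6000001 to 7000000 with 45 and 4000001 to 5000000 with 44. The emptiest was 2000001 to 3000000 with 19 regions, then 12000001 to 13000000 with 20. In that last window each replicate list held 7 regions.

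The central part of III, 50% of its extent, held 261 of the 456 regions (57.2%, 52.7 to 61.7). The central share was lower on III than on II, where it was 64.4% (difference −7.14 percentage points, −13.4 to −0.79), and than on V, where it was 69.6% (−12.4, −18.6 to −5.94). The intervals of the difference from IV (60.1%; −2.91, −9.45 to 3.68) and from X (52.1%; 5.13, −0.95 to 11.1) held 0. Cut into 10 bins of equal length, III ran from 22.6 regions per Mb in bin 9 to 46.6 in bin 5. Next to that low value, bin 10 held 38.6 per Mb, against 32.8 in bin 10 of II, 27.2 of X, 18.2 of V and 15.6 of IV. Of the 53 regions in bin 10 of III, 35 were called in a replicate (66.04%), the highest share among the 10 bins of III. The lowest share was 44.7% in bin 6. The bins were compared after their values were seen, and no test was made between them.

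**Figure D5:**
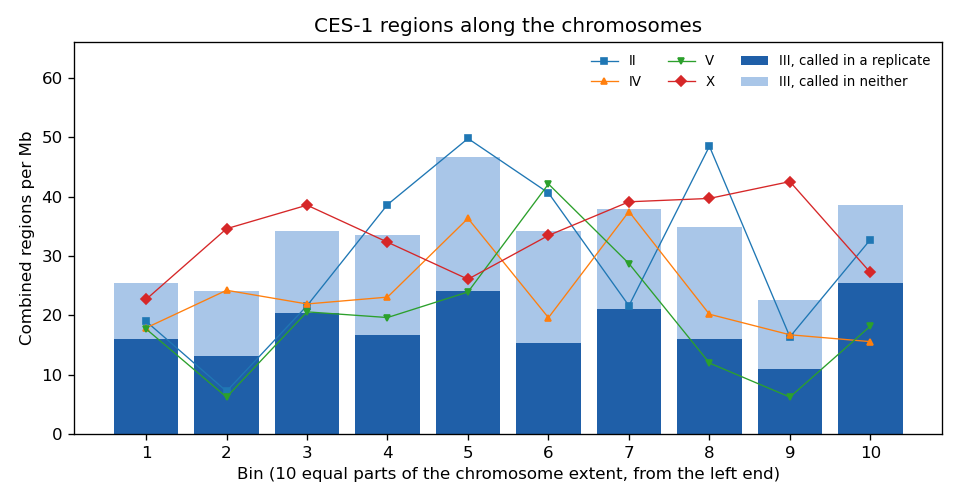
Combined regions per Mb in 10 bins of equal length along each chromosome, as stacked bars for III (dark, called in a replicate; light, called in neither) and as lines for II, IV, V and X. On III the density ran from 22.6 to 46.6 per Mb, with the last bin at 38.6.

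Replicate support was then compared between the central and outer parts of III. In the central part 134 of 261 regions were called in a replicate (51.3%, 45.3 to 57.3), and in the outer parts 112 of 195 (57.4%, 50.4 to 64.2). Within bands of score the odds of being called, central against outer, were 1.03 (0.62 to 1.71). The interval does not exclude a difference of up to 1.71-fold. Of the 21 regions that scored above 10, 10 were central and 11 outer.

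Neighbouring regions on III lay a median of 18251 bp apart, edge to edge (quartiles 3560.5 and 43220.5 bp). The 3 longest gaps ran from 2172125 to 2391780 (219654 bp), from 1202422 to 1418772 (216349 bp) and from 9084551 to 9271568 (187016 bp). Of 138 windows of 100 kb, 8 held no region, and the median window held 3. The fullest were 5900001 to 6000000 and 6300001 to 6400000, with 11 regions each. In the first of these 2 of the 11 were called in a replicate and 4 were under 50 bp, while in the second 6 were called. The window 600001 to 700000 came next in position order among 3 with 10 regions, of which 7 were called.

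On III 50 regions had another centre within 1000 bp (10.96%, 8.42 to 14.2), forming 28 neighbouring pairs. Of the 50, 26 were called in a replicate (52%), near the 53.9% of all regions on III and the 47.7% of the whole list. The share of regions with such a neighbour was compared next. On II, IV, V and X together the share was 9.96% (8.68 to 11.4), within the interval of III. It was 15.04% on II (12.04 to 18.6), 10.3% on V (7.71 to 13.6), 9.16% on IV (6.72 to 12.4) and 6.41% on X (4.70 to 8.67). In 9 of the 28 pairs both regions were called in a replicate, and in 7 neither was. The smallest gap on III, 218 bp, parted 11641265 to 11641594 (score 5.42, called in both replicates) from 11641813 to 11642012 (score 3.25, called in neither). No gap in the whole combined list was under 204 bp. The next smallest gap on III, 224 bp, lay between 834595 to 834792 (score 2.35, replicate 1 alone) and 835017 to 835113 (score 2.89, replicate 2 alone). A gap of 237 bp parted 7949187 to 7949260 (score 2.20) from 7949498 to 7949540 (score 2.35), and neither of these was called in a replicate.

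The close regions formed 18 runs of 2 regions, 2 runs of 3 and 2 runs of 4. The run from 833757 to 836144 spanned 2388 bp and ended in the strongest of its regions, 835501 to 836144, which scored 8.96 in the combined list, 4.25 in replicate 1 and 3.96 in replicate 2. Comment lines in all 3 deposited lists mark this region as changed in its inner structure when coordinates were lifted over to WS220. In each list its end was moved by 2 bp and its start by 1 bp, so that the combined region went from 643 to 644 bp. The other run of 4, from 4655981 to 4658693, held regions that scored 2.34, 4.59, 6.95 and 4.34. The 4.59 region was called in replicate 1 alone and the regions of 6.95 and 4.34 in replicate 2 alone, so no region of that run was called in both replicates. In the run from 8873029 to 8874596, gaps of 239 and 256 bp set off a region of 22 bp (score 2.17, called in neither) between regions that scored 4.88 (replicate 1 alone) and 8.00 (both replicates).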

How the data were processed

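CES-1 ChIP-seq of L3 larvae gave 2 ChIP and 2 input libraries. The authors deposited 3 lists of regions with a q-value per region, called with PeakSeq and given in WormBase WS220 coordinates, per the file headers. Per the deposited sample table, the lists were called on ChIP replicate 1, on replicate 2 and on their merged alignments, each against 1 merged input alignment. The same table gives the authors' deposited read counts per run of 36 bp reads, which were summed per library. Which aligner, PeakSeq version and earlier build were used is not given in the sources used here.

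Regions counted as matched if at least 1 bp was common to both. With no values per library, nothing was tested across libraries, and no p-value was computed. Shares carry Wilson intervals, differences Newcombe intervals, density ratios exact binomial intervals, and odds ratios Mantel-Haenszel estimates with Robins-Breslow-Greenland intervals over bands of combined score with edges at 2, 2.5, 3, 4, 6 and 10. Intervals of medians come from order statistics. Extents run to the last region in any list. The work used matplotlib 3.10.9, scipy 1.17.1, pandas 2.3.3, numpy 2.4.6 and Python 3.11.15, and the functions were tested on simulated regions.

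The members, comparisons and settings were chosen with earlier results of these data known. The text names the 15 highest-scoring regions on III, the 5 highest called in neither replicate, the 3 highest unmatched regions of each replicate, the 3 widest, the 5 closest pairs, the 3 fullest windows of 100 kb and the 3 longest gaps. Class limits, single-base regions, runs, extreme pairs, calls missing from the combined list and the fullest and emptiest 1 Mb windows were named after their values were seen. So was the region that followed the 5 called in neither replicate. Sequences, E-boxes and gene positions were not analysed here, because no genome of the files' build was used.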

Additional observations from a re-analysis of the deposited data

How the results depend on the processing

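Of 83 alternative values for 19 results, 53 stayed inside the interval of the reported value or, for ratios, left the reading against 1 unchanged. These include ratios that crossed 1 while neither interval excluded it. The support ratio to the 4 chromosomes together, 1.30, was 0.90 with 50% reciprocal overlap and 0.94 by replicate 1 alone. The support ratio to V went from 1.20 to 0.95 with 50% reciprocal overlap. The density ratio to X went from 0.99 to 1.07 in the replicate 2 list. The share called in at least 1 replicate, 53.9%, was 44.3% with 50% reciprocal overlap, 82.3% for scores of at least 3 and 59.7% for regions of at least 50 bp, and ranged from 22.8% (replicate 1 alone) to 47.1% (replicate 2 alone). With 50% reciprocal overlap the odds ratio of support was 1.14 to II, 0.95 to X and 0.60 to IV (0.42 to 0.86). To X it was 1.15 without bands, 1.46 for scores of at least 3 and 1.41 for regions of at least 50 bp, and by single replicates it ranged from 0.89 to 1.42 (to II, 1.11 to 1.50). The cause of these changes was not tested. The overlap of the replicate lists was 54.2% of each at equal lengths. The density ratio by single replicate lists ranged from 1.32 to 1.37 to II, from 1.19 to 1.26 to IV and from 1.21 to 1.34 to the 4 chromosomes together, and for regions called in both replicates it was 1.05 to IV and 1.10 to the 4 together. The central share was 45.8% for the central 40% and 66.7% for the central 60%, by construction. The median width was 223 bp for regions of at least 50 bp and 279 bp for scores of at least 3. With gaps between edges, 15.1% of regions had a neighbour within 1000 bp. Chosen after seeing the data, regions under 30 bp made up 9.87% and those under 100 bp 20.2%, single replicate lists held 1.87% to 9.78% under 50 bp, and the odds ratio of narrow regions was 0.91 without the band from 2 to 2.5. No paired analysis was possible because the inputs were merged and no test across libraries was fitted. The alternatives for E-boxes and gene starts were not run, because no genome of the build was used. The effect of read depth on the calls was not tested.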
